A study of Mus musculus with 6 samples.

Results

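Transcript levels of 10 lipogenic genes were compared between WT and Vps15LKO mouse liver. The genes were chosen by name and are Acly, Acaca, Acacb, Fasn, Elovl6, Scd1 and Scd2, which encode enzymes, and Srebf1, Mlxipl and Thrsp, which encode regulators. Each symbol matched 1 of the 56305 genes of the table, and all 10 passed the filter on low values, which kept 15430 genes. RNA came from 3 WT and 3 Vps15LKO livers of male mice of 5 weeks, fed chow ad libitum and collected at Zeitgeber time 6 (ZT6), in the light phase. Vps15LKO mice (AlbCre+;Vps15 f/f) lack Vps15, the regulatory subunit of class 3 phosphatidylinositol 3-kinase, where Cre is made under the albumin promoter, which is active in hepatocytes. WT is the name the labels give to the control mice, and their alleles at the floxed locus are not given in the sources used here. Each liver gave 1 poly(A) RNA library.

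De novo lipogenesis builds fatty acids from the acetyl-CoA that sugar breakdown yields. Acly makes cytosolic acetyl-CoA from citrate, the acetyl-CoA carboxylases turn it into malonyl-CoA, Fasn joins these units to palmitate, and Elovl6 and the stearoyl-CoA desaturases lengthen the chain and put in a double bond. In liver the pathway follows feeding: SREBP1, the product of Srebf1, and LXR relay insulin and sterol signals, ChREBP, the product of Mlxipl, senses sugar metabolites, and Thrsp (Spot14) responds to thyroid hormone and carbohydrate.

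The libraries held between 16137093 and 18110223 reads on genes. The deposited values are normalized counts, that is, reads divided by 1 DESeq2 size factor per library. The factor was 0.742 to 0.801 for WT and 1.23 to 1.41 for Vps15LKO libraries, so that equal shares of the reads give a lower normalized count in Vps15LKO liver. A gene was called where the limma fit over all tested genes gave a fold of 1.2 or more with a Benjamini-Hochberg adjusted p under 0.05. By this rule 66.5% of all tested genes were called, 33% lower and 33.5% higher, and 73.2% had no overlap between genotypes. Under total-read scaling, which takes reads per library as the common scale, the median log2 fold change of all genes rose by 0.72, and 11.1% of genes were called lower and 66.8% higher. The direction of a modest change therefore depends on the scale. The targeted gene Pik3r4 (Vps15) had a log2 fold change of −0.54 (0.19 under total-read scaling), and reads on its deleted part were not separated.

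Of the markers of liver cell types, 9 of 10 hepatocyte markers were lower (median log2 fold change −1.67), with summed normalized counts of 2821427 to 3270917 in WT against 826043 to 1263514 in Vps15LKO livers. Higher were 9 of the 9 cholangiocyte and progenitor markers tested (sums of 1284 to 1456 against 13206 to 24781), 10 of 10 stellate cell and fibroblast markers (6925 to 7422 against 27819 to 32496), 8 of 10 macrophage markers (7283 to 8746 against 22447 to 26289) and 6 of the 7 lymphocyte markers tested (149 to 189 against 387 to 461). Of 10 endothelial markers, 5 were lower and 3 higher (0 and 6 under total-read scaling, sums of 10587 to 11678 against 8589 to 10390.2), and all 10 proliferation genes were higher. In a bulk liver sample, fewer hepatocytes and less RNA per hepatocyte cannot be told apart. Of 10 adipocyte markers, 4 were tested, of which Car3 (log2 fold change −4.65), Pck1 (−3.03) and Lipe (−1.21) were lower and Fabp4 (0.68) higher, with list sums of 89477 to 144171 in WT against 5012 to 12201 in Vps15LKO livers. Car3 and Pck1 are also made by hepatocytes, and the adipocyte genes are named with their values already known. The adipocyte genes Lep and Retn had 3 reads or fewer in each liver. Adipoq had 1.33, 5.0 and 17.5 normalized counts in WT and 0, 3.24 and 0 in Vps15LKO livers, and Slc2a4 had 5.30, 2.50 and 2.70 against 12.2, 8.91 and 9.19. Plin1 and Cfd were also below the filter. The part of these shifts in the results that follow was not tested.

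Promoter windows, the 250 bases before a RefSeq transcript start (GRCm38.p6), were found for 8 of the 10 genes, 11 windows in all, not for Scd1 and Scd2. They were searched on both strands for exact matches of 5 elements: the sterol element TCACNCCAC, the E-box CACGTG, the CCAAT box, the GC box GGGCGG and the DR4 repeat. The 4 windows printed belong to the genes with the largest fall (Thrsp), to the synthase itself (Fasn) and to the transcription factor with the largest fall (Mlxipl, with both of its starts). Capitals mark the matches, with ATTGG being CCAAT on the other strand.
Fasn, chr11:120824548-120824797, minus strand: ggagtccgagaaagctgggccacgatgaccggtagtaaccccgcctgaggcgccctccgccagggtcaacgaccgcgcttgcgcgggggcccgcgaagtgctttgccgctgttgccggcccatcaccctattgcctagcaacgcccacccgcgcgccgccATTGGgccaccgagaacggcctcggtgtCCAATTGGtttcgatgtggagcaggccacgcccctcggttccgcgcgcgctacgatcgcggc
Thrsp, chr7:97417551-97417800, minus strand: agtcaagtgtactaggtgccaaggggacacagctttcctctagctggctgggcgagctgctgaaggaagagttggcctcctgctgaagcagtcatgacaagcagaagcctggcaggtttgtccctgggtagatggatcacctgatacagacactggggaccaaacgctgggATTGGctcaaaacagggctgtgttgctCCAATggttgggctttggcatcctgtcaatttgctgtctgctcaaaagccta
Mlxipl, upstream start, chr5:135089640-135089889, plus strand: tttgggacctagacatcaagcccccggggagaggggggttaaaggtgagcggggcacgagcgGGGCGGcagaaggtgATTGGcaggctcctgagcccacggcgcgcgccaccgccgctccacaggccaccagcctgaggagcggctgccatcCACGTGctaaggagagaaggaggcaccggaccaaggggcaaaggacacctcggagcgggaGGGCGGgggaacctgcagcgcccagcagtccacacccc
Mlxipl, downstream start, chr5:135106641-135106890, plus strand: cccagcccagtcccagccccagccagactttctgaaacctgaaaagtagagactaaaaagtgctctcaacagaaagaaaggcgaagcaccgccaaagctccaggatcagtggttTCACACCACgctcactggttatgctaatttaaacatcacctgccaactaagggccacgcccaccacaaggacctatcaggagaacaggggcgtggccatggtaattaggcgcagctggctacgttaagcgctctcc
The Fasn window held CCAAT matches at 90, 62 and 59 bases before the start, the last pair overlapping on opposite strands. The Thrsp window held them at 79 and 52 bases. The sterol element, which SREBPs bind, was found in 1 of the 11 windows, 136 bases before the downstream Mlxipl start, and in 1.05% of 32851 promoters of the same length. The E-box, which ChREBP, USF factors and Bmal1 with Clock bind, was found in 1 of the 11 windows, 98 bases before the upstream Mlxipl start, and in 6.02% of all promoters. CCAAT, bound by NF-Y, was present in 6 of the 11 windows (5 of the 8 genes) and in 33.8% of all promoters, and the GC box in 4 of the 11 windows (3 genes) and 32.7%. The DR4 repeat, bound by LXR, had no match in the 11 windows and was found in 0.0152% of promoters. These are matches of letters in short windows and no evidence of binding.

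All 10 genes were called (66.5% of all tested genes) and none overlapped between genotypes (73.2% of all did not overlap). Of the 10, 9 were lower (33% of all) and Scd2 was higher (33.5%) in Vps15LKO liver. Over the 10 genes the median log2 fold change was −1.25, beside −0.02 for all tested genes. Under total-read scaling, where 11.1% of all tested genes were called lower and 66.8% higher, 6 of the 10 were lower and 1 higher. The 6 were Acacb, Elovl6, Scd1, Srebf1, Mlxipl and Thrsp, the 1 was Scd2, and the median over the 10 genes was −0.53. Acly, Acaca and Fasn were not called on this scale. With quantile normalization, which called 68% of all tested genes (37.6% lower and 30.4% higher), 5 of the 10 were called lower and Scd2 higher.

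**Figure D1:**
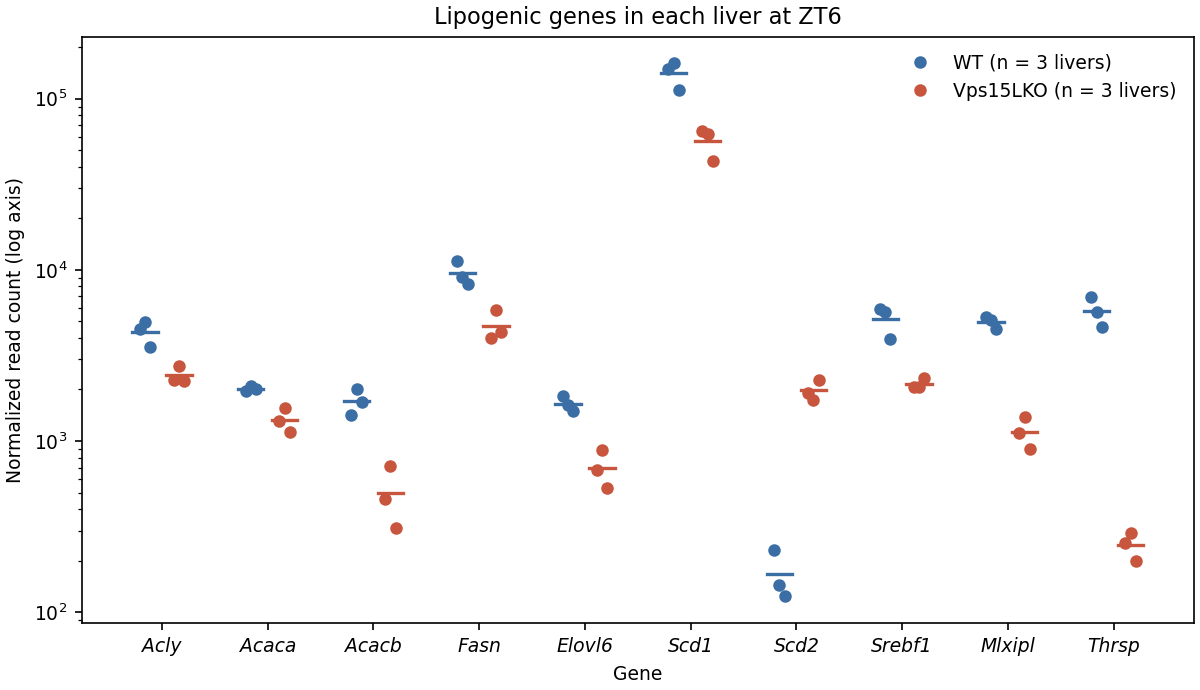
Normalized counts of the 10 lipogenic genes in each liver, on a log axis, with 1 point per liver and a bar at the group mean (n = 3 livers each). The WT and Vps15LKO points are apart for every gene, with Scd2 alone above WT and Thrsp farthest below.

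Acly (chromosome 11, 100476353 to 100528000) stood at 4541, 4961 and 3539 normalized counts in WT livers, against 2266, 2754 and 2243 in Vps15LKO livers. Each Vps15LKO liver was below each WT liver, and the log2 fold change was −0.84 ± 0.15 (SE, adjusted p = 0.001 by limma). As a share of all reads the genotypes overlapped, and the log2 fold change was −0.11 (adjusted p = 0.42 by limma under total-read scaling).

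Acaca, the carboxylase whose cytosolic malonyl-CoA feeds synthesis, lies on chromosome 11 from 84129672 to 84401651. It had 1959.8, 2085 and 2019 normalized counts in WT and 1315, 1553 and 1132 in Vps15LKO livers. Its change was the smallest of the 10 genes on the deposited scale but not under total-read, quantile or hepatocyte-marker scaling, with a log2 fold change of −0.61 ± 0.12 (SE, adjusted p = 0.002 by limma), and its sign turned under total-read scaling, to 0.11 (adjusted p = 0.32). Acacb, the carboxylase at the mitochondrial membrane whose malonyl-CoA restrains fatty acid entry through Cpt1a, lies on chromosome 5 from 114146535 to 114250761. Its values were 1424, 2007 and 1681 in WT and 457, 716 and 309.8 in Vps15LKO livers. Acacb was 3.45-fold lower (log2 fold change −1.85 ± 0.27, SE, adjusted p = 0.00036 by limma) and stayed lower under total-read scaling (−1.13). Within each library, Acacb had 0.727, 0.963 and 0.832 reads per read of Acaca in WT and 0.347, 0.461 and 0.274 in Vps15LKO livers, a ratio that no factor common to a library alters and in which the genotypes did not overlap. No window of 50 bases is shared between the transcripts of this pair.

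Fasn (chromosome 11, 120805846 to 120824547), the synthase of palmitate, had 11252, 9075 and 8316 normalized counts in WT and 4001, 5826 and 4342 in Vps15LKO livers. The fall was 2.02-fold (log2 fold change −1.02 ± 0.17, SE, adjusted p = 0.00087 by limma). Under total-read scaling it was −0.30 with an adjusted p of 0.076, and as a share of all reads the highest Vps15LKO liver lay above the lowest WT liver. Fasn reads per Acaca read were 5.74, 4.35 and 4.12 in WT and 3.04, 3.75 and 3.84 in Vps15LKO livers.

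Elovl6 (chromosome 3, 129532355 to 129638495), which lengthens palmitate to stearate, had 1836, 1629 and 1496 normalized counts in WT and 677, 891 and 530.5 in Vps15LKO livers. The groups were well apart, with a 2.36-fold fall (log2 fold change −1.27 ± 0.18, SE, adjusted p = 0.00028 by limma) and −0.54 under total-read scaling, where it was also called. Its relative Elovl5, which lengthens polyunsaturated chains, was also called lower (log2 fold change −1.34, and −0.62 under total-read scaling), though as a share of all reads its genotypes overlapped. The ratio of Elovl5 to Elovl6 was 3.57, 4.06 and 3.51 in WT and 3.14, 4.39 and 3.15 in Vps15LKO livers, and the groups overlapped.

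Scd1 (chromosome 19, 44394455 to 44407879), the main stearoyl-CoA desaturase of adult mouse liver, had 148849, 160779 and 112749 normalized counts in WT and 65132, 62193 and 43115 in Vps15LKO livers. It was 2.48-fold lower (log2 fold change −1.32 ± 0.33, SE, adjusted p = 0.0071 by limma) and called lower under total-read scaling (−0.59, adjusted p = 0.037). With quantile normalization the value was 0.028 and not called. Scd2 (chromosome 19, 44293674 to 44306864), the isoform typical of brain and of fetal and newborn tissue, had 232, 144 and 124 normalized counts in WT and 1919, 1739.8 and 2266 in Vps15LKO livers. The lowest Vps15LKO liver was far above the highest WT liver, and the rise was 11.9-fold (log2 fold change 3.60 ± 0.22, SE, adjusted p = 3.6e-06 by limma). Of all tested genes, 3.3% had a log2 fold change of 3.5 or more. Scd2 was higher under every scaling tried.

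The balance of the desaturases differed between genotypes. For 1 read of Scd1 there were 0.00156, 0.000893 and 0.0011 reads of Scd2 in WT and 0.0295, 0.0280 and 0.0526 in Vps15LKO livers, a 30.5-fold shift. Per length, Scd1 was still the far more abundant transcript in each liver. The pair share some sequence: 2.97% of the windows of 50 bases of the Scd1 transcripts occur in Scd2, and how reads with several matches were counted is not given in the sources used here. Another isoform, Scd3, was below the filter, with 279.8, 18.7 and 5.39 normalized counts in WT and 17.6, 10.5 and 9.19 in Vps15LKO livers.

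Srebf1 (chromosome 11, 60199089 to 60222581), the sterol regulatory factor that switches on the enzymes of lipogenesis, had 5877, 5642 and 3969.9 normalized counts in WT and 2076, 2070.4 and 2327 in Vps15LKO livers. The Vps15LKO livers were close to each other (coefficient of variation 6.78%) and all below WT. The fall was 2.39-fold (log2 fold change −1.24 ± 0.15, SE, adjusted p = 0.00015 by limma) and −0.51 under total-read scaling, where it was called. Its 3′ end shares 109 bp with Rai1 on the other strand, and whether the counting used strand is not given in the sources used here. Srebf2, which serves cholesterol synthesis, was not called (1581, 1529 and 1383 against 1589, 1677 and 1584 normalized counts, log2 fold change 0.11, adjusted p = 0.29 by limma) and was higher under total-read scaling (0.84). Srebf2 reads per Srebf1 read were 0.269, 0.271 and 0.348 in WT and 0.765, 0.810 and 0.681 in Vps15LKO livers.

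Mlxipl (chromosome 5, 135089890 to 135138382), which encodes the carbohydrate response factor ChREBP, had 5293, 5091 and 4489 normalized counts in WT and 1116, 1389 and 895 in Vps15LKO livers. The highest Vps15LKO value was far below the lowest WT value, a 4.37-fold fall (log2 fold change −2.15 ± 0.16, SE, adjusted p = 9.1e-06 by limma, and −1.42 under total-read scaling). Its dimer partner Mlx fell less (log2 fold change −0.77, and −0.05 and not called under total-read scaling). Mlxipl reads per Mlx read were 7.07, 8.23 and 6.63 in WT and 3.00, 3.36 and 2.20 in Vps15LKO livers.

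Thrsp (chromosome 7, 97412938 to 97417730), whose small protein acts with its relative Mid1ip1 on lipogenesis, had the largest change of the 10 genes on the deposited scale, while under total-read and hepatocyte-marker scaling that of Scd2 was larger. It had 6900.2, 5669.6 and 4639.8 normalized counts in WT and 254, 289 and 199 in Vps15LKO livers. The fall was 23.2-fold (log2 fold change −4.53 ± 0.17, SE, adjusted p = 4.7e-07 by limma), and −3.80 under total-read scaling. Of all tested genes, 0.447% had a log2 fold change of −4.5 or less. Mid1ip1, which promotes the assembly of acetyl-CoA carboxylase into filaments, fell by far less (log2 fold change −0.88, and −0.16 and not called under total-read scaling). Thrsp reads per Mid1ip1 read were 6.44, 5.64 and 5.84 in WT and 0.559, 0.565 and 0.341 in Vps15LKO livers. Per exon length and library total (RPKM), Thrsp stood above Mid1ip1 in WT (115 against 19.8) and below it in Vps15LKO liver (8.20 against 17.8).

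**Figure D2:**
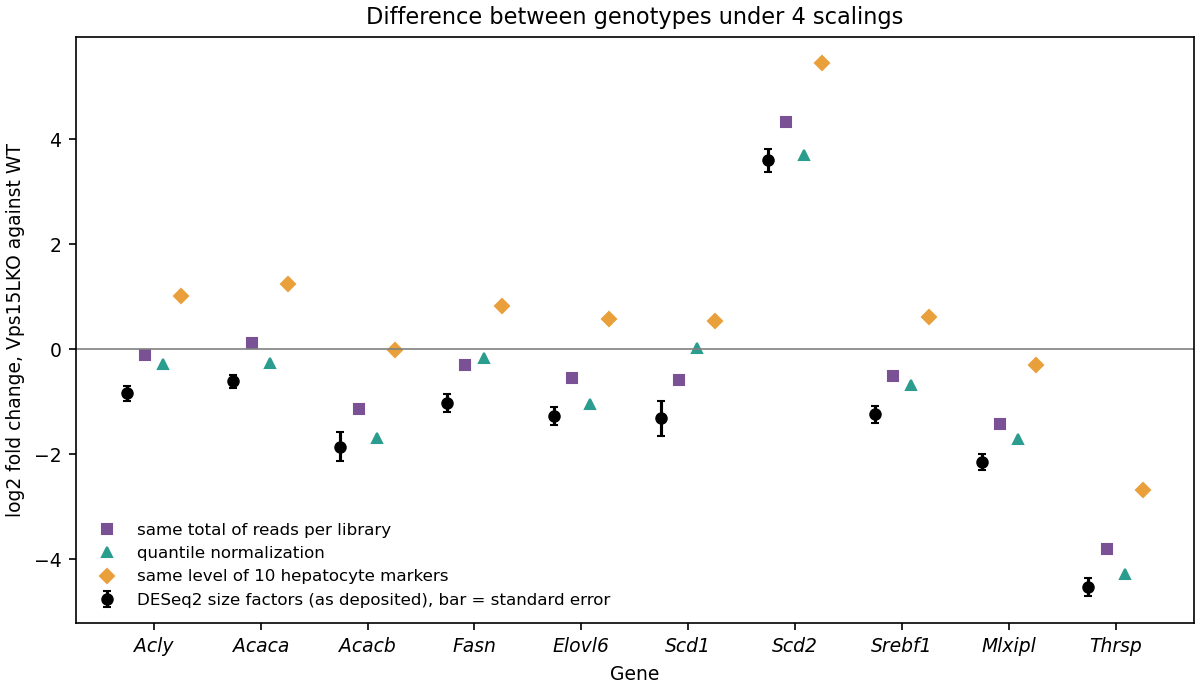
The log2 fold change of each lipogenic gene (Vps15LKO against WT) under 4 scalings of the libraries, with standard errors for the deposited scaling. Scd2 stays above 0 and Thrsp below 0 under each, whereas Acaca runs from −0.61 to 1.24. Mlxipl and Acacb are also below 0, but under hepatocyte-marker scaling neither is called (−0.30 and −0.004).

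A scaling to the mean log2 level of the 10 hepatocyte markers, chosen after the data were seen, moved the median of all genes up by 1.84. On this scale 94.8% of all tested genes were called, 92.3% higher and 2.57% lower. Of the 10 genes, 7 were called higher (Fasn 0.83, Acaca 1.24, Acly 1.02, Scd1 0.54, Elovl6 0.58, Srebf1 0.61 and Scd2 5.45 as log2 fold changes), Thrsp was called lower (−2.68), and Acacb (−0.004) and Mlxipl (−0.30, adjusted p = 0.067 by limma) were not called.

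In the 8 ratios of gene pairs within a library, no scaling factor enters. Quantile normalization is no such factor, as it resets values by rank, and under it the log2 fold changes were −0.17 for Fasn and −0.25 for Acaca, an order opposite to that of their ratio. The genotypes did not overlap in 7 of the 8 (p = 0.1 each, two-sided exact permutation test, the smallest p that 3 against 3 livers allow, 0.114 after Benjamini-Hochberg adjustment). Of single genes 73.2% did not overlap, and the share over all gene pairs was not computed, so the count is a description. The exception was Elovl5 to Elovl6, with a log2 difference of −0.08 (p = 0.6, exact permutation test). The log2 differences of the others were 4.93 for Scd2 to Scd1, −3.65 for Thrsp to Mid1ip1, −1.37 for Mlxipl to Mlx, 1.35 for Srebf2 to Srebf1, −1.24 for Acacb to Acaca, 0.89 for Acly to Acss2 and −0.41 for Fasn to Acaca. Acly and Acss2 are alternative sources of acetyl-CoA, from citrate and from acetate. Acss2 fell more (log2 fold change −1.73), and Acly reads per Acss2 read were 0.761, 0.702 and 0.788 in WT and 1.32, 1.32 and 1.54 in Vps15LKO livers.

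**Figure D3:**
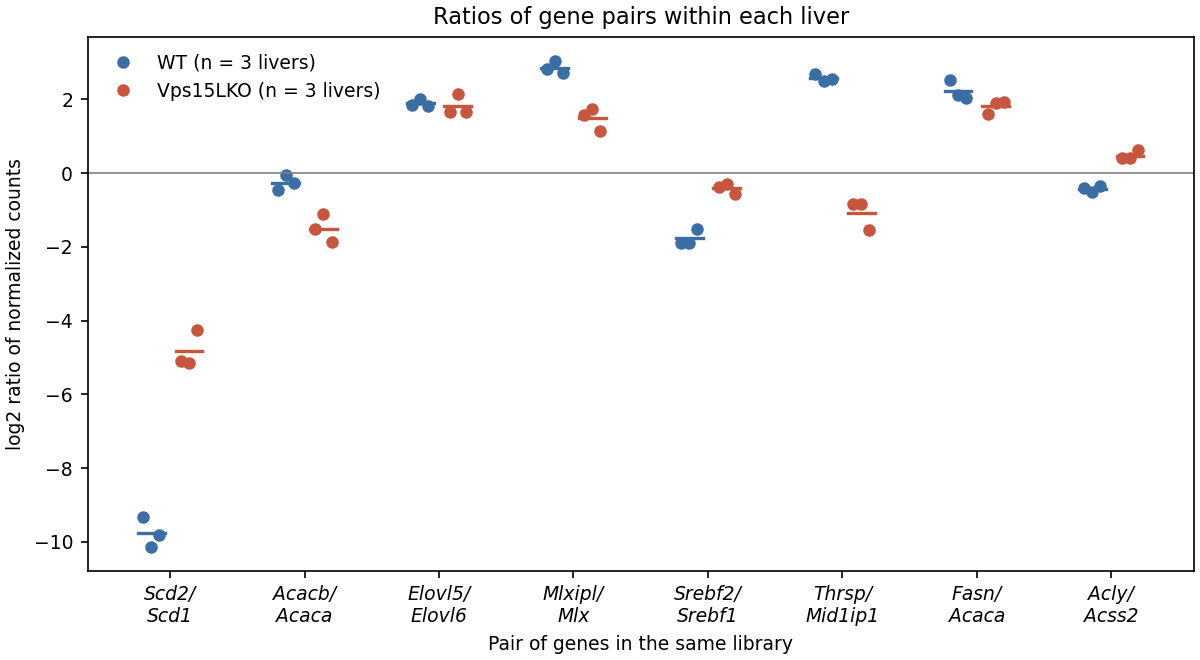
The log2 ratio of 8 gene pairs within each liver (points) with the group mean (bars), n = 3 livers each. The genotypes are apart for every pair but Elovl5 to Elovl6, and the widest gap is that of Scd2 to Scd1.

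Levels between genes were compared as RPKM, the read count per exon length and library total. In WT liver Scd1 stood far above the rest with 1267 ± 198 (SD, n = 3 livers), and Thrsp came next with 115 ± 18.1. Then followed Srebf1 (40.3 ± 6.84), Mlxipl (39.5 ± 1.91), Fasn (38.4 ± 4.57) and Acly (36.3 ± 5.37), whose ranges over the livers overlapped. Elovl6 (11.3 ± 0.713), Acacb (7.83 ± 1.48), Acaca (5.23 ± 0.320) and Scd2 (1.34 ± 0.407) formed the lower end, each apart from the next. In Vps15LKO liver Scd1 still led with 843 ± 142. Acly (33.4 ± 2.13), Fasn (31.4 ± 4.82), Srebf1 (28.1 ± 3.79) and Scd2 (26.6 ± 5.45) came next, each overlapping its neighbours, and were followed by Mlxipl (14.8 ± 2.22). Thrsp (8.20 ± 0.964) and Elovl6 (7.87 ± 1.505) overlapped, and Acaca (5.67 ± 0.509) and Acacb (3.68 ± 1.29) came last. Between genotypes Thrsp thus went from rank 2 to rank 7 and Scd2 from rank 10 to rank 5. For Srebf1 the highest Vps15LKO level (32.36) was just under the lowest WT level (32.39).

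**Figure D4:**
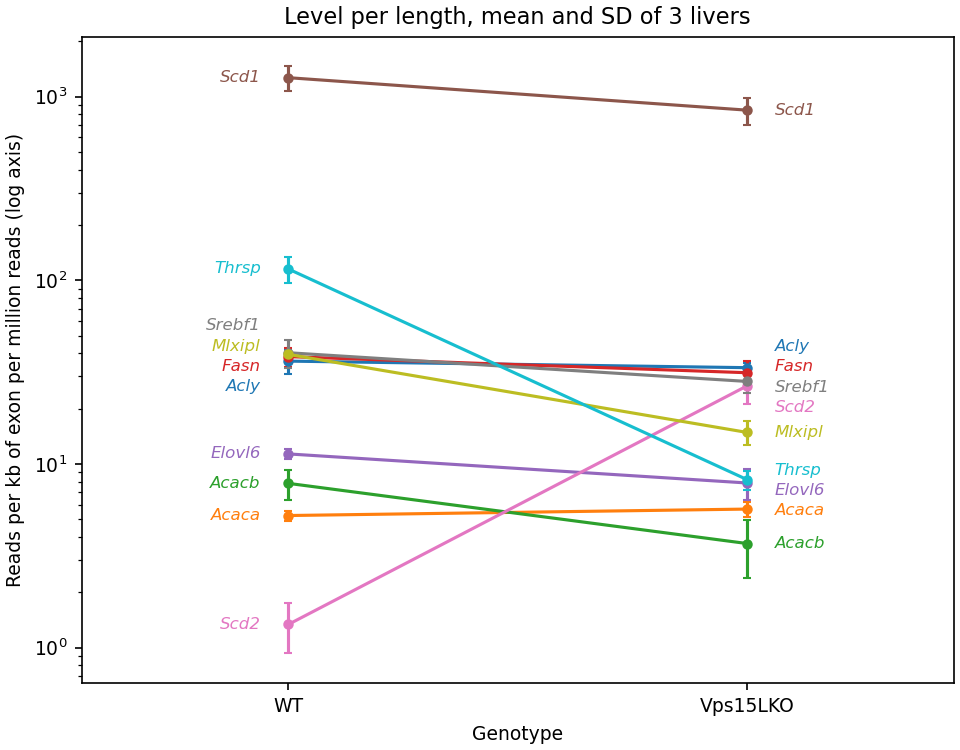
Level of the 10 genes in RPKM (log axis) in WT and Vps15LKO liver, with points at the mean, bars for the SD over 3 livers and a line joining the genotypes. Thrsp drops from 115 to 8.20 and Scd2 climbs from 1.34 to 26.6, while Acly and Acaca stay near level.

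The 10 genes together took 0.797%, 0.871% and 0.657% of the reads on genes in WT, against 0.578%, 0.542% and 0.449% in Vps15LKO livers. Scd1 alone gave 78.8% to 81.6% of these reads in WT and 75.2% to 82.2% in Vps15LKO livers, so the summed share follows Scd1. Within a genotype the livers differed in a partly shared way. WT replicate 3 was the lowest WT liver for 8 of the 10 genes, by normalized count and by read share. By normalized count Vps15LKO replicate 2 was the highest for 7 and replicate 3 the lowest for 7 (7 and 6 by read share). With each liver left out in turn, all 10 genes were still called. Acacb varied most among Vps15LKO livers (coefficient of variation 41.6%) and Acaca least among WT livers (3.09%).

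Of 133 further genes around the pathway, 128 were tested, of which 80 were lower, 26 higher and 22 not called (median log2 fold change −0.75). Total-read scaling called 40 of them lower and 48 higher (median −0.02), and quantile normalization 61 lower and 33 higher, so that the surplus of falls in these lists depends on the scale. In the supply of carbon, 18 of 20 genes were lower and 2 higher (10 and 3 under total-read scaling). Pklr, the liver pyruvate kinase, fell (log2 fold change −1.43), as did the citrate carrier Slc25a1 (−0.92, and −0.20 and not called under total-read scaling). Pdk4, which shuts off pyruvate dehydrogenase, rose from 92.8, 81.2 and 56.6 to 618, 555 and 241 (2.52). Of 8 NADPH sources, 4 were lower and 4 higher (2 and 5 under total-read scaling). Malic enzyme Me1 fell (−1.33), while Pgd of the pentose phosphate pathway rose (2.83, from 785, 747 and 706 to 5302, 5275 and 5302).

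Among genes of chain elongation and desaturation, 9 of 14 tested were lower and 2 higher (4 and 6 under total-read scaling). Elovl3, which makes very long saturated and monounsaturated chains, had 1655, 1566 and 1986 normalized counts in WT livers and at most 1 read in Vps15LKO livers, at least 761-fold lower against a floor of 3 reads in each library. Elovl7 went the other way, from 3.98, 5.0 and 2.70 to 2101, 1597 and 1906 (log2 fold change 8.60). Elovl3 was thus nearly silent in Vps15LKO liver and Elovl7 in WT liver. The polyunsaturated desaturases Fads1 (−1.19) and Fads2 (−0.77) fell, the latter not under total-read scaling (−0.04). In the control of malonyl-CoA and the activation of fatty acids, 9 of 16 were lower and 4 higher (3 and 7 under total-read scaling). The main hepatic acyl-CoA synthetase Acsl1 fell (−3.19), and Acsl4, which prefers arachidonate, rose (0.88).

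Of 12 genes of SREBP processing, 6 were lower and 1 higher (5 and 6 under total-read scaling). Scap, which escorts SREBPs to the Golgi, fell (log2 fold change −1.54), and the site-2 protease Mbtps2 rose (0.73). Insig1, which holds Scap in the endoplasmic reticulum and is itself an SREBP target, had 8933, 6544 and 3219 normalized counts in WT and 2029, 2552 and 1919 in Vps15LKO livers (−1.41). Insig2 was not called (−0.24), and was called higher under total-read scaling (0.49). Of 24 transcription factors of lipogenesis, 15 were lower and 4 higher (6 and 10 under total-read scaling). The liver X receptor gene Nr1h3 had −0.75 and, under total-read scaling, −0.02 without a call. Nr0b2, the corepressor SHP, fell most (−2.22), and Pparg rose most (1.203, from 316, 316 and 151 to 574, 626 and 516).

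Of 11 LXR target genes, 5 were lower and 4 higher (2 and 4 under total-read scaling). Cyp7a1, the rate-limiting enzyme of bile acid synthesis, fell (−1.77), as did the sterol exporter gene Abcg5 (−0.99, and −0.26 and not called under total-read scaling). Lpl, the lipoprotein lipase, which macrophages also make, rose from 411, 518 and 1593 to 6460.5, 5843 and 5387 (3.07). Of 9 ChREBP targets tested, 5 were lower and 2 higher (2 and 3 under total-read scaling). G6pc fell most (−3.21), Txnip was not called (0.21, adjusted p = 0.63 by limma) and its relative Arrdc4 rose (0.56). The glucose and insulin responsive Pnpla3 was below the filter, with 1.33, 2.50 and 5.39 normalized counts in WT and 13.0, 13.0 and 19.8 in Vps15LKO livers. Of 14 triglyceride assembly genes tested, 9 were lower and 3 higher (6 and 4 under total-read scaling), with the lipase Mgll at −2.57 and the acyltransferase Gpat3 at 1.22.

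**Figure D5:**
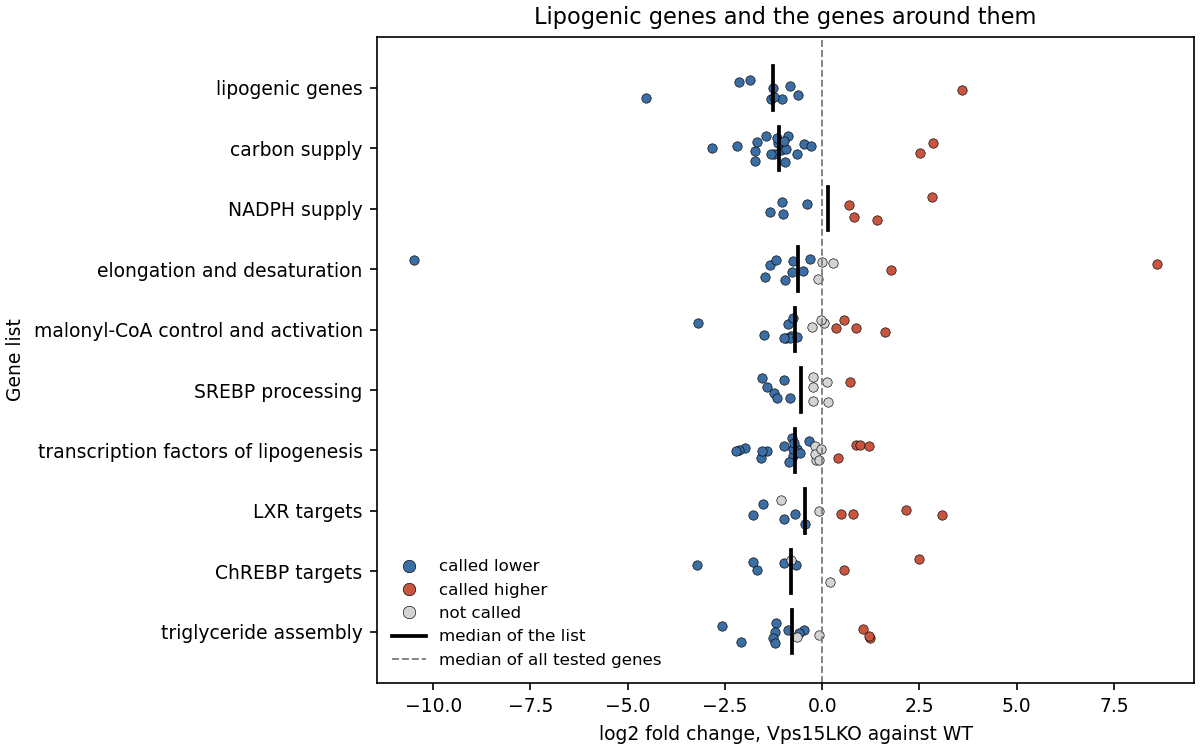
The log2 fold change of each tested gene in the 10 lipogenic genes and in 9 lists around them, coloured by call, with the median of the list (bar) and of all tested genes (dashed line). Of the lists, NADPH supply alone has its median above 0 (0.15), and Elovl3 and Elovl7 lie at the ends, the former at a fitted value that the pseudocount of 1 sets.

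For each of the 10 genes, the tested gene with the most alike pattern over the 6 livers was found by the root mean square distance of centred log2 values, among 11238 genes that averaged 100 normalized counts or more. The nearest were Atxn7l3b for Acaca (0.030), H2-Q10 for Elovl6 (0.046), Cyp2c68 for Mlxipl (0.049), Phlpp1 for Acly (0.061), Pigyl for Fasn (0.064), Got1 for Srebf1 (0.072), Nr3c2 for Scd1 (0.074), Fhl3 for Scd2 (0.102), Ppfia2 for Acacb (0.113) and Gm13872 for Thrsp (0.249). The list holds none of the 10 lipogenic genes themselves. With 6 livers in 2 groups, the distance takes in the difference between genotypes as well as the spread within them.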

How the data were processed

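Reads were cleaned by the authors in SOAPnuke, aligned to GRCm38 in HISAT2, assigned to genes in featureCounts and normalized in DESeq2 (versions not given in the sources used here). For each of 56305 genes the deposited signal is its read count over the size factor of the library. Multiplied by that factor, all values above 0 came out whole (within 0.01 reads), so whole reads were recovered. The labels describe a library kit that marks the second strand, but how strand and reads with several matches were treated in counting is not given in the sources used here.

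A gene was kept if 3 or more of the 6 livers held 20 or more normalized counts. log2(normalized count + 1), a scale that understates changes of low genes, was compared with limma 3.58.1 in R 4.3.3 (linear fit, empirical Bayes with a mean-variance trend) and Benjamini-Hochberg adjustment over all 15430 genes. Groups and replicate numbers came from the labels, and p-values measure the spread between livers. Replicate number was not used as a block. Symbols, coordinates and exon lengths came from GENCODE release M21, which matched 55227 genes, and promoters from RefSeq (GRCm38.p6).

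The 10 genes and all lists were chosen with earlier results of these data known. Named besides the 10 were partners fixed by name (the genes of the 8 ratios among them), the called gene with the largest rise and the largest fall in each list (averaging 100 normalized counts or more, no overlap) and the gene most alike to each of the 10. A gene that this rule names is not reported here. Comparisons were tested on simulated data first, in which 191 of 15228 genes were called. In the real data 66.5% of genes were called, so the simulation did not test the choice of scale. Alternatives were pseudocounts of 0.1 and 10, other filters and thresholds, total-read, TMM, upper-quartile and quantile scaling, limma without a trend, limma voom, edgeR 4.0.16 and DESeq2 1.42.0 on the recovered reads, a replicate block and each liver left out. On the recovered reads edgeR called 10205 genes. Scaling to hepatocyte markers was added after the data were seen. Tables and plots were made with Python 3.11.15, numpy 2.4.6, pandas 2.3.3, scipy 1.17.1 and matplotlib 3.10.9.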

Additional observations from a re-analysis of the deposited data

How the results depend on the processing

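Of 220 values for the 10 genes (22 alternatives each), 203 kept direction and call, 9 lost the call and 8 turned the direction. These counts are a description, since not every alternative could turn a direction. Stricter thresholds only reread the fit described above. Other filters, the fit without a trend and the replicate block leave each log2 fold change as it was. All turns came from scaling, and their causes were not tested beyond the shift in scale itself. Total-read scaling gave Acaca 0.11 and Pik3r4 0.19, quantile normalization gave Scd1 0.028, and hepatocyte-marker scaling gave Fasn 0.83, Acaca 1.24, Acly 1.02, Scd1 0.54, Elovl6 0.58, Srebf1 0.61 and Pik3r4 1.31 (log2 fold changes). Quantile normalization left 6 of the 10 genes called, 5 of them lower (68% of all tested genes called, 37.6% lower), and hepatocyte-marker scaling 1 lower and 7 higher (2.57% and 92.3% of all). A fold of at least 2 left 5185 genes called in all, and 55 of the further pathway genes (41 lower, 14 higher), without Acaca and Acly among the 10. Of the pathway genes, total-read scaling called 40 lower and 48 higher (11.1% and 66.8% of all tested genes). Hepatocyte-marker scaling called 6 lower and 107 higher (2.57% and 92.3% of all). Replicate numbers showed no pairing of the livers. Correlations of same-numbered deviations were −0.01, −0.01 and 0.05, and those of other pairs ran from −0.06 to 0.09. The labels give no litter, and pairing by litter was not tested. With replicate number as a block, limma called 10048 genes and changed no call among the 10 genes. Leaving out each liver in turn gave 9098 to 10222 genes called and log2 differences of −0.24 to 0.0037 for Elovl5 to Elovl6. The other ratios kept their sign, with p = 0.2 each, the smallest that the exact permutation test allows for 2 against 3 livers, but Fasn to Acaca went from −0.41 to −0.26 without WT replicate 1. Counting error was not separated from the spread between livers.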
